A study of Mus musculus with 6 samples.

Results

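The genes described here encode the enzymes and binding proteins of the glutathione, thioredoxin and antioxidant defence system, 40 genes listed by symbol. Each was read from the array probe sets that the platform annotation gives to that symbol only, taking the one that was brightest on average across the 6 arrays. On that rule 37 of the 40 were measured, among 18193 genes in all, and Prdx1, Prdx5 and Prdx6 were not analysed here. The samples were cultures of hepatic stellate cells, the vitamin A-storing pericytes of the liver, isolated from C57Bl/6 mice. All carried the transgenes CMV-rtTA;TRE-GFP-shRNA.p53.1224, in which rtTA, driven by a CMV promoter, responds to doxycycline by turning on green fluorescent protein and a hairpin RNA that targets p53. Cells of the proliferating group (3 arrays) were given doxycycline, 1 ug/ml, and their p53 is labelled as knocked down. Cells of the senescent group (3 arrays) had the same transgenes, are labelled as control treatment and express p53. The labels give no age, and the drug, the hairpin and the growth state change together between the groups, so they cannot be told apart. The hairpin's own target transcript is not analysed here.

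Cells meet oxidants with a small set of connected reactions. Superoxide dismutases turn superoxide into hydrogen peroxide, which catalase, the glutathione peroxidases and the peroxiredoxins remove. Glutathione and thioredoxin return the glutathione peroxidases and the peroxiredoxins to their reduced form with electrons from NADPH. Many of the genes are driven by the transcription factor NRF2 (gene Nfe2l2), which KEAP1 holds at low levels until oxidants or electrophiles release it. The factor binds antioxidant response elements in DNA. In the liver, glutathione transferases also couple glutathione to drugs and lipid peroxidation products, and stellate cells are known for the globin CYGB.

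RNA was hybridised to Affymetrix arrays, and levels are log2 expression values, where a difference of 1 is a doubling. Precision is limited by 3 arrays per group. The labels do not say whether a group's arrays came from separate cultures or animals, so p-values cover the spread between these samples alone, and that spread may be technical. Array medians lay between 6.15 and 6.19. On the second principal component over all genes, with 12.4% of the variance, proliferating replicate 1 stood apart at 17.70, the rest ranging from -12.34 to 4.82. Of 17 stellate and myofibroblast markers, 12 lay above background (5.57, a level that 95% of olfactory receptor probe sets do not exceed), among them Acta2, Des and Col1a1, while Lrat, Reln, Ngfr, Gfap and Lum did not. Of the 17, 6 fell and 0 rose: Pdgfrb, Col3a1, Hand2, Dcn, Col1a1 and Col1a2, with changes of -1.30 to -0.49. Of 12 hepatocyte markers, 7 lay below it, Alb and Cyp2e1 included, and their mean level was 5.22 to 5.44 on proliferating and 5.21 to 5.43 on senescent arrays. Of these Apob, above background, rose by 0.86 and Ahsg, below it on average, had a change of -0.74. Ahsg lay below background on all senescent arrays, so its fall was at least 1.16-fold against that level. All 5 mesothelial, 5 biliary and 7 portal fibroblast markers lay above background. The mesothelial ones had mean levels of 10.72 to 11.06 and 10.20 to 10.29. Of these Lrrn4, Wt1 and Gpm6a fell by 1.80, 1.11 and 0.57, and Msln rose by 0.79. Of the biliary markers Krt19 rose by 0.58 and Krt7 fell by 0.69. Of the portal fibroblast markers Thy1 and Fbln2 rose by 0.79 and 0.50 and Cd34 fell by 0.27. Of 12 macrophage markers, 4 lay above background and 1 passed, Csf1r, with a rise of 0.35. Of 10 endothelial markers, 2 lay above background and 1 passed, Cdh5, with a change of 0.72. Cdh5 lay below background on all proliferating arrays, so its rise was at least 1.12-fold against that level. The part of any of these markers in the results below was not tested. In such bulk RNA, fewer cells of a type and less RNA per cell cannot be told apart.

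The comparison asked how the antioxidant genes differed between senescent and proliferating stellate cells. Senescent cells had more RNA of Gss, the enzyme of the last step of glutathione synthesis (1.85-fold, log2 change 0.89 ± 0.071, SE, n = 3 per group), of the transferase Gsto1 (1.79-fold) and of the peroxiredoxin repair enzyme Srxn1 (1.63-fold). They had less RNA of the transferases Gstt1, Gstm1 and Mgst1 (2.32-fold, 2.31-fold and 2.17-fold), of the endoplasmic reticulum peroxidase Gpx7 (2.29-fold) and of the globin Cygb (2.23-fold). Of the 37 measured genes, 6 rose, 10 fell and 21 did not pass a limma p of 0.05 adjusted by Benjamini-Hochberg over all 18193 genes. That is 43.2%, beside 20.0% of all genes and 27.4% of genes above background, where all 37 lay. The 2 directions were called for 9.49% (higher) and 10.5% (lower) of all genes, and for 12.7% and 14.7% of those above background. A call with a log2 change of at least 0.5 was made for 9 members, and for 8.61% of all genes. The median change was -0.085 over the members and -0.0018 over all genes. Groups did not overlap for 24 members, 8 of them not called, against 37.0% of all genes and 47.7% of those above background.

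These changes are relative to the bulk of genes on the arrays. Probe sets of the poly-A spike-ins, control transcripts added to the RNA, read 0.60 higher on senescent arrays, and scaling to them moved the median of all genes to -0.60. In that setting 30 members were called lower and 0 higher, beside 15320 of all 18193 genes called in either direction. Gss, Gsto1 and Srxn1 then had changes of 0.29, 0.24 and 0.11, which did not pass, and Txnrd1, Cat and Ephx1 turned to -0.18, -0.19 and -0.14.

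**Figure D1:**
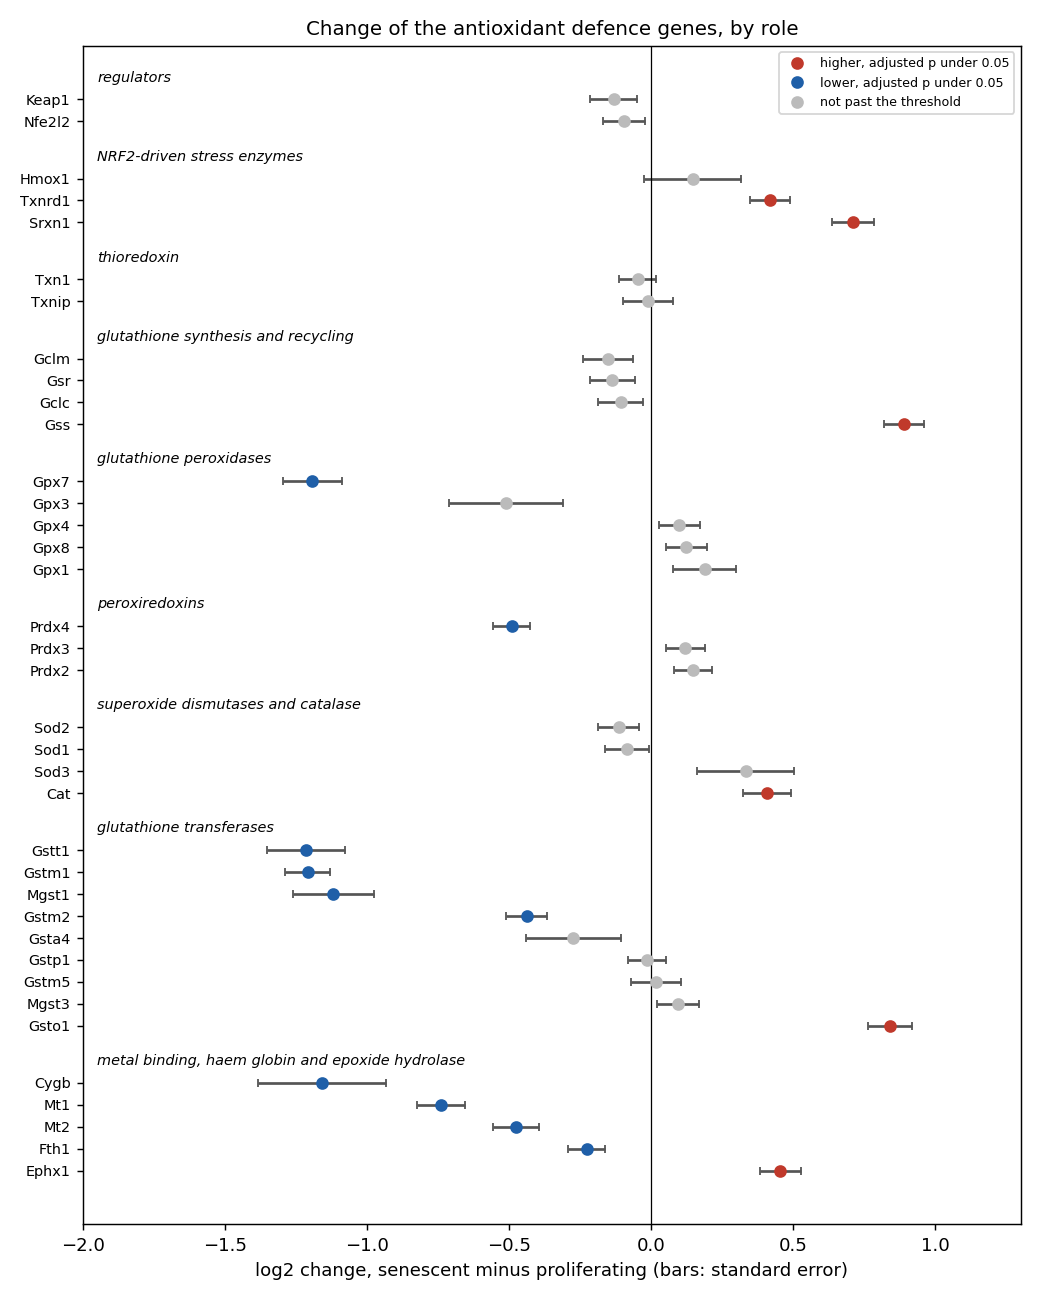
Log2 change (senescent minus proliferating, x axis) of the 37 measured antioxidant genes, grouped by role; points are fitted changes from 3 arrays per group and bars are standard errors. The 6 red points lie between 0.41 (Cat) and 0.89 (Gss) and the 10 blue points between -1.21 (Gstt1) and -0.23 (Fth1); with scaling to the spike-ins the red points for Txnrd1, Cat and Ephx1 turn negative.

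The sensor and its factor did not pass in the probe sets read. Nfe2l2 read 11.19, 11.22 and 11.17 on the proliferating and 11.14, 11.16 and 10.99 on the senescent arrays. The senescent arrays were all lower by a small margin, with a change of -0.095 ± 0.074 (limma, adjusted p = 0.446). Keap1, the adaptor that marks NRF2 for degradation, read 9.02, 9.15 and 9.25 against 9.04, 8.93 and 9.05, with overlapping groups and a change of -0.13 ± 0.083 (limma, adjusted p = 0.337). A second, dimmer probe set of Nfe2l2 gave 9.42, 6.03 and 6.01 on proliferating and 8.99, 8.86 and 8.61 on senescent arrays. In it proliferating replicate 1 stood above all senescent arrays and the other two proliferating arrays far below them. Its change of 1.67 ± 0.80 did not pass (limma over all probe sets, adjusted p = 0.247).

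Of Srxn1, Txnrd1 and Hmox1, stress enzymes known as NRF2 targets, 2 rose. Other members known as such targets are given with their own groups. They include Ephx1, which rose, Gclc, Gclm and Gsr, which did not pass, and Gstm1, which fell. Srxn1, sulfiredoxin, which repairs overoxidised peroxiredoxins, read 9.32, 9.25 and 9.36 on the proliferating and 10.07, 9.93 and 10.06 on the senescent arrays. All senescent arrays lay above all proliferating ones, and the change was 0.71 ± 0.074 (limma, adjusted p = 5.00e-04). Of its other 3 probe sets, those with changes of 0.46 and 0.55 passed and the one with 0.026 did not. Txnrd1, the cytosolic thioredoxin reductase, went from 11.70, 11.62 and 11.70 to 12.04, 12.06 and 12.17, again without overlap. It rose by 0.42 ± 0.071 (limma, adjusted p = 0.00441), and its dimmer probe sets gave 0.64 and 0.55 without passing. Hmox1, haem oxygenase 1, read 10.04, 10.19 and 10.10 on the proliferating and 9.81, 10.46 and 10.49 on the senescent arrays. Senescent replicate 1 was the lowest of all arrays and senescent replicates 2 and 3 the highest. The change of 0.15 ± 0.17 did not pass, but it did without senescent replicate 1 (0.37, limma, adjusted p = 0.0307).

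Thioredoxin and its binding partner did not pass. Txn1, thioredoxin, read 13.94, 13.99 and 13.98 against 13.92, 13.94 and 13.91, a change of -0.048 ± 0.064. Txnip, which binds and inhibits thioredoxin, had -0.012 ± 0.087 and overlapping groups.

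Of the 4 genes of glutathione synthesis and recycling, 1 rose. Gss, glutathione synthetase, read 9.00, 8.89 and 9.01 on the proliferating and 9.86, 9.80 and 9.91 on the senescent arrays (limma, adjusted p = 1.45e-04). The groups lay far apart, and the second probe set gave nearly the same change, 0.88 ± 0.081. Gclc and Gclm are the catalytic and modifier subunits of glutamate cysteine ligase, the rate-limiting step before it. They had changes of -0.11 ± 0.079 and -0.15 ± 0.089, and their groups overlapped. Gsr, which reduces oxidised glutathione, had -0.14 ± 0.079, and -0.36 ± 0.11 in its dimmer probe set (limma over all probe sets, adjusted p = 0.0670). The difference in change between Gss and the ligase genes was not tested.

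Of these NRF2-linked genes Txnrd1 rose and Gclm did not pass, and the 250 bases before a RefSeq start of each (assembly GRCm38.p6, 5′ to 3′ on the gene's strand) are shown because both hold the core of the antioxidant response element. That core was searched as TGACNNNGC on both strands, and capitals mark the match, which in both lies on the opposite strand. Txnrd1 has 3 listed starts and only the one shown holds it.
Txnrd1 (chr10:82858956-82859205, + strand): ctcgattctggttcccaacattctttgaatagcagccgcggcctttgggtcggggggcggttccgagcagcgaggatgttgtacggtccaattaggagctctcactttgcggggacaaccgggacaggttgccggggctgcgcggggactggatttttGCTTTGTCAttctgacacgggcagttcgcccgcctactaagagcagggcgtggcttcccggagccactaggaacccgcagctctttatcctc
Gclm (chr3:122245307-122245556, + strand): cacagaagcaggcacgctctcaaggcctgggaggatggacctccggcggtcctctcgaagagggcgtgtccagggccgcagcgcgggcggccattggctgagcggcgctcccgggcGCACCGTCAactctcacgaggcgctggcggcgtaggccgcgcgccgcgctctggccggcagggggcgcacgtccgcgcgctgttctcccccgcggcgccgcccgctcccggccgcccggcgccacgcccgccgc

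Promoters were listed for 31 of the 37 genes, and 7 of them (22.6%) held this core before at least 1 start: Gclm, Gstm5, Mgst1, Mt2, Nfe2l2, Sod1 and Txnrd1. Over all 27025 genes of the promoter table the share was 11.5%. Of the 7, Txnrd1 rose, Mgst1 and Mt2 fell and 4 did not pass. Calls among all genes that hold the core were not counted. The match of Mt2 overlaps an AP-1 site (TGACTCA or TGAGTCA on either strand), which 12.9% of the members and 5.16% of all genes hold. A match is a description of letters, and a gene without one can have the element outside this window.

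Among the glutathione peroxidases, 1 of 5 fell. Gpx7, a peroxidase of the endoplasmic reticulum, read 10.51, 10.11 and 10.25 on the proliferating and 9.07, 9.12 and 9.10 on the senescent arrays. The senescent arrays were tightly grouped and all below the others, with a change of -1.19 ± 0.10 (limma, adjusted p = 2.05e-04). Gpx8, its relative in the same compartment, had 0.12 ± 0.073 and did not pass. Gpx4, which reduces lipid peroxides in membranes and guards against ferroptosis, read 13.40, 13.31 and 13.41 against 13.55, 13.42 and 13.44. The senescent arrays lay just above the others, and the change of 0.099 ± 0.072 did not pass (limma, adjusted p = 0.413). Gpx1, the abundant cytosolic enzyme, read 13.60, 13.24 and 13.20 on the proliferating and 13.58, 13.46 and 13.55 on the senescent arrays, a change of 0.19 ± 0.11. Proliferating replicate 1 was the highest array, and without it the change passed (0.32, limma, adjusted p = 0.0281). The secreted Gpx3 read 9.02, 8.23 and 8.24 against 7.92, 7.87 and 8.15, a change of -0.51 ± 0.20 (limma, adjusted p = 0.120). The same array was highest, and without it the change was -0.25.

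Of the 3 peroxiredoxins measured, which reduce peroxides through a reactive cysteine, 1 fell. Prdx4, the form of the endoplasmic reticulum, fell by 0.49 ± 0.067 (limma, adjusted p = 0.00163). Its 3 dimmer probe sets, 1 of them below background, gave -0.20, -0.30 and -0.035 without passing, and the mean of all its probe sets did not pass (-0.26, limma, adjusted p = 0.0947). The cytosolic Prdx2 had 0.15 ± 0.066 (limma, adjusted p = 0.172) with senescent arrays all above proliferating ones. Its dimmer probe set read 10.17, 10.15 and 10.19 on the proliferating and 10.97, 10.80 and 10.79 on the senescent arrays and passed, with 0.69 ± 0.081 (limma over all probe sets, adjusted p = 0.00156). The mean of both passed too (0.42, limma, adjusted p = 0.00296). The mitochondrial Prdx3 had 0.12 ± 0.068.

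Catalase rose and the superoxide dismutases did not pass. Cat, which splits hydrogen peroxide in peroxisomes, read 10.82, 10.89 and 10.83 on the proliferating and 11.10, 11.28 and 11.38 on the senescent arrays. It rose by 0.41 ± 0.086 without overlap (limma, adjusted p = 0.0121), and its second probe set passed with 0.35. Sod1, the copper and zinc enzyme of the cytosol, read 13.10, 12.97 and 12.94 against 12.96, 12.83 and 12.97, with overlap and a change of -0.085 ± 0.078. Of its 4 other probe sets, 1 passed, with 0.30. Sod2, the manganese enzyme of mitochondria, read 11.48, 11.38 and 11.34 against 11.31, 11.32 and 11.22. Its senescent arrays were slightly lower, and the change of -0.12 ± 0.073 did not pass (limma, adjusted p = 0.337). Sod3, the extracellular enzyme, read 8.36, 7.75 and 7.67 against 8.38, 8.15 and 8.24, a change of 0.33 ± 0.17. Proliferating replicate 1 lay among the senescent arrays, and without it the change passed (0.55, limma, adjusted p = 0.00655).

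Glutathione transferases went both ways: of 9 measured, 4 fell and 1 rose. Gstt1, a theta-class enzyme that handles small halogenated compounds, read 9.81, 9.36 and 9.25 on the proliferating and 8.33, 8.21 and 8.24 on the senescent arrays. All senescent arrays were lower, with a change of -1.21 ± 0.14 (limma, adjusted p = 7.34e-04). Gstm1, of the mu class, went from 10.49, 10.57 and 10.60 to 9.41, 9.23 and 9.39. It fell by 1.21 ± 0.078 without overlap (limma, adjusted p = 6.37e-05). Each of its 4 probe sets passed, with changes between -1.28 and -0.54. Mgst1, a membrane-bound enzyme that also reduces lipid peroxides, went from 12.72, 12.29 and 12.20 to 11.31, 11.42 and 11.12, a fall without overlap and a change of -1.12 ± 0.14 (limma, adjusted p = 0.00122). Its other probe set lay below background. Gstm2, a neighbour of Gstm1 in the mu-class cluster, fell by 0.44 ± 0.073 (limma, adjusted p = 0.00417), while Gstm5 of the same cluster had 0.017 ± 0.087 and overlapping groups.

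The omega-class enzyme Gsto1, a reductase that acts on arsenic compounds and dehydroascorbate, went the other way. It read 12.36, 12.35 and 12.33 on the proliferating and 13.06, 13.22 and 13.29 on the senescent arrays. The groups were far apart, with a change of 0.84 ± 0.078 (limma, adjusted p = 2.84e-04) and 1.01 in the second probe set. Gsta4, which removes the lipid peroxidation product hydroxynonenal, had -0.28 ± 0.17, and -0.059 without proliferating replicate 1. Gstp1, of the pi class, had -0.015 ± 0.068. Mgst3 had 0.094 ± 0.073. None of these 3 passed.

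**Figure D2:**
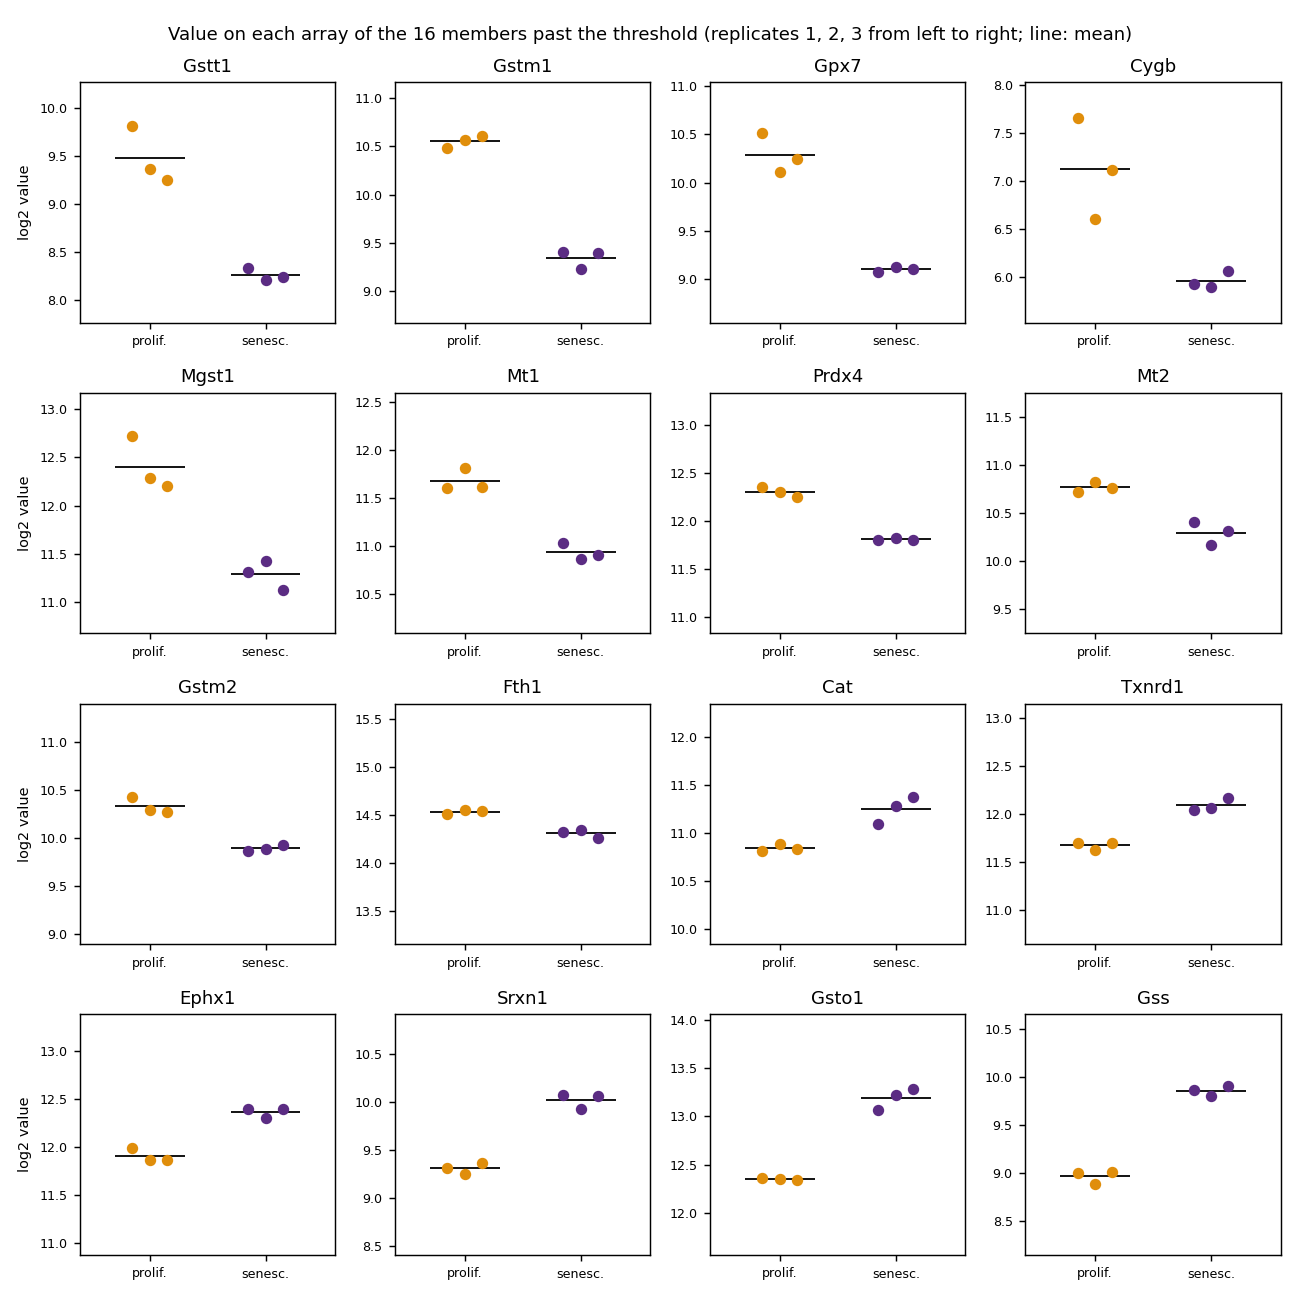
Log2 values (y axis, each panel spanning the same number of units) on each array for the 16 genes past the threshold, ordered by change; points are replicates 1, 2 and 3 from left to right and lines are group means. No panel has overlapping groups, and proliferating replicate 1 is the highest point for Gstt1, Gpx7, Cygb, Mgst1, Prdx4 and Gstm2; the rises of Cat, Txnrd1 and Ephx1 are relative to the bulk of genes and turn negative when arrays are scaled to the spike-ins.

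All 5 genes of metal binding, the globin and the epoxide hydrolase passed, 4 lower and 1 higher. Mt1 and Mt2 encode metallothioneins, small proteins that bind zinc and copper and scavenge oxidants. Mt1 read 11.61, 11.81 and 11.61 on the proliferating and 11.03, 10.86 and 10.91 on the senescent arrays. In this probe set, whose suffix marks it as able to pick up more than 1 transcript, it fell by 0.74 ± 0.086 without overlap (limma, adjusted p = 8.27e-04). The gene's other probe set went the opposite way, from 6.34, 6.13 and 6.31 to 7.25, 7.27 and 7.30, and rose by 1.01 ± 0.083 (limma over all probe sets, adjusted p = 3.32e-04). The direction of Mt1 thus depends on the probe set. Mt2, with a single probe set, fell by 0.48 ± 0.082 (limma, adjusted p = 0.00477).

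The 250 bases before the RefSeq starts of both metallothionein genes (GRCm38.p6) are shown because the probe sets read for them fell together. Capitals mark the core of the metal response element, searched as TGCACNC and TGCGCNC on both strands. Within these windows Mt1 has 1 match and Mt2 has 3, of which 1 lies on the opposite strand. Either gene can have further elements outside its window, so these are not counts for the whole promoter.
Mt1 (chr8:94178839-94179088, + strand): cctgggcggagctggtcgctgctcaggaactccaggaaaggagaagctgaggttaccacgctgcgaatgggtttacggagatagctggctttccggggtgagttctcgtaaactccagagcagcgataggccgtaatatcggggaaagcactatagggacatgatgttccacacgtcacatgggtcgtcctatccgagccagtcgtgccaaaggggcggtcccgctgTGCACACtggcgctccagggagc
Mt2 (chr8:94172368-94172617, + strand): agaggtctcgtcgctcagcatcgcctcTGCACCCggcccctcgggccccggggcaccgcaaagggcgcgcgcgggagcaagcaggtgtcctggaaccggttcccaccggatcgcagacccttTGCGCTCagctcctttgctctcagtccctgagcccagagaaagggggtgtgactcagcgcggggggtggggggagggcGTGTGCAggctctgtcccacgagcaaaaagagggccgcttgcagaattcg

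This core was present for 10 of the 31 genes with a promoter (32.3%) and for 23.8% of all genes in the table. Of the 10, 6 fell, 1 rose and 3 did not pass. The 6 include Mt1, whose direction depends on the probe set. Calls among all genes that hold this core were not counted, so a link between core and direction was not tested. At least 3 matches, as in Mt2, were found in 1.26% of the 32851 promoters listed.

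Cygb, cytoglobin, an oxygen-binding globin of stellate cells, read 7.66, 6.60 and 7.12 on the proliferating and 5.93, 5.90 and 6.07 on the senescent arrays. The proliferating arrays were widely spread and all above the senescent ones, which lay close to the background of 5.57. The change, less certain in size so near background, was -1.16 ± 0.22 (limma, adjusted p = 0.00825). Without proliferating replicate 1 it was -0.89. Ephx1, microsomal epoxide hydrolase, rose by 0.45 ± 0.072 (limma, adjusted p = 0.00334). Fth1, the ferritin heavy chain, which stores iron in a form that cannot feed oxidant chemistry, fell by 0.23 ± 0.065 (limma, adjusted p = 0.0428). That call ended whichever of the 6 arrays was left out (changes of -0.24 to -0.20), and with the replicate number as a block (limma, adjusted p = 0.103). The other 15 called members kept call and direction with each array left out.

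Proliferating replicate 1, the array apart on the second component, read more than 0.3 above the mean of the other proliferating arrays for 8 members, Cygb, Gpx1, Gpx3, Gpx7, Gsta4, Gstt1, Mgst1 and Sod3. It did so for 5.42% of all genes. Without it Gpx7, Gstt1 and Mgst1 still passed, with changes of -1.08, -1.05 and -0.96. The counts were then 8 higher and 9 lower.

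Probe sets of 1 gene can read different transcripts, so all 72 probe sets of the members were compared. Of the 16 called members, 6 have a single probe set. The other 10 have 17 further sets, of which 8 passed in the same direction and 1, of Mt1, in the opposite one (12.4% of all probe sets passed in either direction). Among the 18 further sets of members not called, 2 passed, those of Prdx2 and Sod1. All 6 members read from a probe set with the suffix _s_at or _x_at were among the called ones, namely Srxn1, Gss, Gstm1, Gsto1, Fth1 and Mt1. Among all 18193 genes 1599 were read from such a set, and the calls among these were not counted. A set without the suffix also passed in the same direction for Srxn1, Gss, Gstm1 and Gsto1. That of Fth1 did not pass and that of Mt1 passed in the opposite direction.

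**Figure D3:**
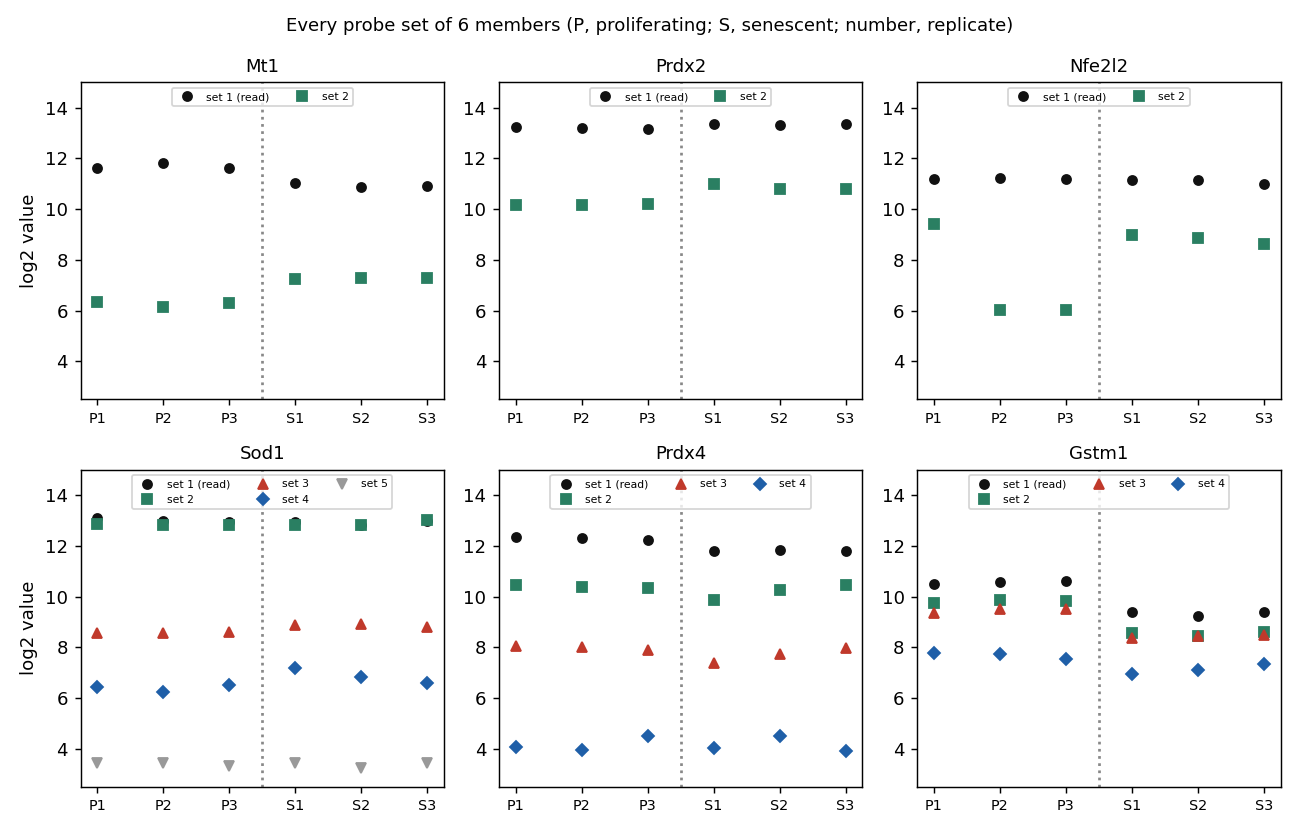
Log2 values (y axis) of every probe set of 6 genes on the 3 proliferating (P) and 3 senescent (S) arrays; each marker is 1 probe set, numbered by mean level, and set 1 is the one read for the gene. The sets of Gstm1 move together, those of Mt1 move in opposite directions, and set 2 of Nfe2l2 reads 6.03 and 6.01 on proliferating replicates 2 and 3 and between 8.61 and 9.42 on the other arrays.

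The wider system was described with 10 lists of related genes, 119 measured in all, of which 22 rose and 15 fell (31.1% called, beside 20.0% of all genes and 27.4% of genes above background, where 111 of the 119 lay) with a median change of -0.00034. Of these 37 calls, 22 remained with each array left out in turn. Rises are relative to the bulk of genes. Among the genes named next, those of Nfe2l1, Ugdh, Glrx3, Taldo1, Pgls, Mtf1, Slc39a14 and Selenom turned negative when arrays were scaled to the spike-ins. Mafk, Maff, Msrb2, Msrb1, Chac1 and Ggct then lost their calls, with changes of 0.37, 0.24, 0.027, 0.014, 0.11 and 0.081, while Nqo1 and Gsto2 stayed called higher.

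Of 10 partners and adaptors of NRF2, 3 rose and 0 fell. These were Mafk (0.96 ± 0.12) and Maff (0.84 ± 0.090), small MAF proteins that pair with NRF2 on DNA, and Nfe2l1 (0.54 ± 0.089), a related factor that induces proteasome genes. Of 15 further NRF2 targets measured, from 18 listed, 2 rose and 2 fell. Nqo1, a quinone reductase also driven by the aryl hydrocarbon receptor, read 9.98, 9.50 and 9.54 on the proliferating and 11.43, 11.50 and 11.44 on the senescent arrays. It was 3.44-fold higher without overlap, a change of 1.78 ± 0.13 (limma, adjusted p = 8.99e-05). Aldh3a1, an aldehyde dehydrogenase, and the quinone reductase Nqo2 fell by 1.02 and 0.35. Ugdh had 0.35, a call lost without proliferating replicate 2 or 3 or senescent replicate 2 (0.32, 0.32 and 0.30). The number of rises in this list ranged from 1 to 6 with 1 array left out.

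Of 12 genes listed for NADPH supply, 11 were measured, all but G6pdx, and of these 2 rose and 3 fell. The falls were Idh2 and Aldh1l2 of mitochondria, by 1.20 and 0.91, and the cytosolic Idh1 by 0.48. Taldo1 and Pgls of the pentose phosphate pathway had 0.41 and 0.39, the latter lost without senescent replicate 1 (0.37, limma, adjusted p = 0.0540). Of 16 genes listed as relatives of thioredoxin and glutaredoxin, 9 rose and 2 fell, with a median of 0.26. The list also holds the methionine repair enzymes Msra, Msrb1, Msrb2 and Msrb3, which belong to neither family. Msrb2 and Msrb1, which repair oxidised methionine, rose by 0.62 and 0.61. Glrx3 had 0.53, lost without senescent replicate 1 or 2 (0.46 and 0.50). With any 1 array left out, 6 to 8 of the list rose and 0 to 2 fell.

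Of 13 genes of glutathione and cysteine turnover measured, from 14 listed, 2 rose and 1 fell. The rises were Chac1 (0.71) and Ggct (0.68), enzymes of glutathione breakdown. Cth, which makes cysteine, had -0.40, lost without proliferating replicate 2 or 3 or senescent replicate 1 or 3 (-0.45, -0.31, -0.42 and -0.31). Of 13 other glutathione transferases measured, from 14 listed, 1 rose and 1 fell. Gsto2, the second omega-class gene, rose from below background on all proliferating arrays, at least 1.80-fold against that level (limma, adjusted p = 2.93e-05). Gsta3 fell by 0.75. Of 11 iron and haem genes, 2 fell. They were Slc40a1, the iron exporter ferroportin, with -1.19 (lost without senescent replicate 2 or 3, -1.18 and -1.10), and the transferrin receptor Tfrc with -0.30 (lost without proliferating replicate 2 or 3 or senescent replicate 1 or 2, -0.30, -0.26, -0.30 and -0.29).

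Of 6 genes of the metal response, 2 rose and 1 fell. Mtf1, the factor that binds metal response elements, rose by 0.37, a call lost with the mean of its probe sets (0.12, limma, adjusted p = 0.348). The zinc importer Slc39a10 fell by 0.61, while Slc39a14 had 0.26, lost with any array left out (0.22 to 0.29). Of 10 genes of selenoproteins and their synthesis, Selenop, the plasma selenium carrier, was 2.22-fold lower. Selenom had 0.38, lost without proliferating replicate 2 or 3 or senescent replicate 1 or 3 (0.36, 0.33, 0.36 and 0.35). Of 14 genes for oxidant-producing enzymes and their partner proteins, 0 rose and 2 fell, Aox1 (-0.37) and Maoa (-0.23). The 14 are those measured of 19 listed, and only 9 lay above background, Cybb not among them. With 1 array left out, the call of Aox1 held only without proliferating replicate 3 (otherwise -0.42 to -0.27), and that of Maoa in no case (-0.26 to -0.21). Nox4, the oxidase studied in stellate cells, had 0.24 ± 0.25 and lay below background on 1 array of each group.

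**Figure D4:**
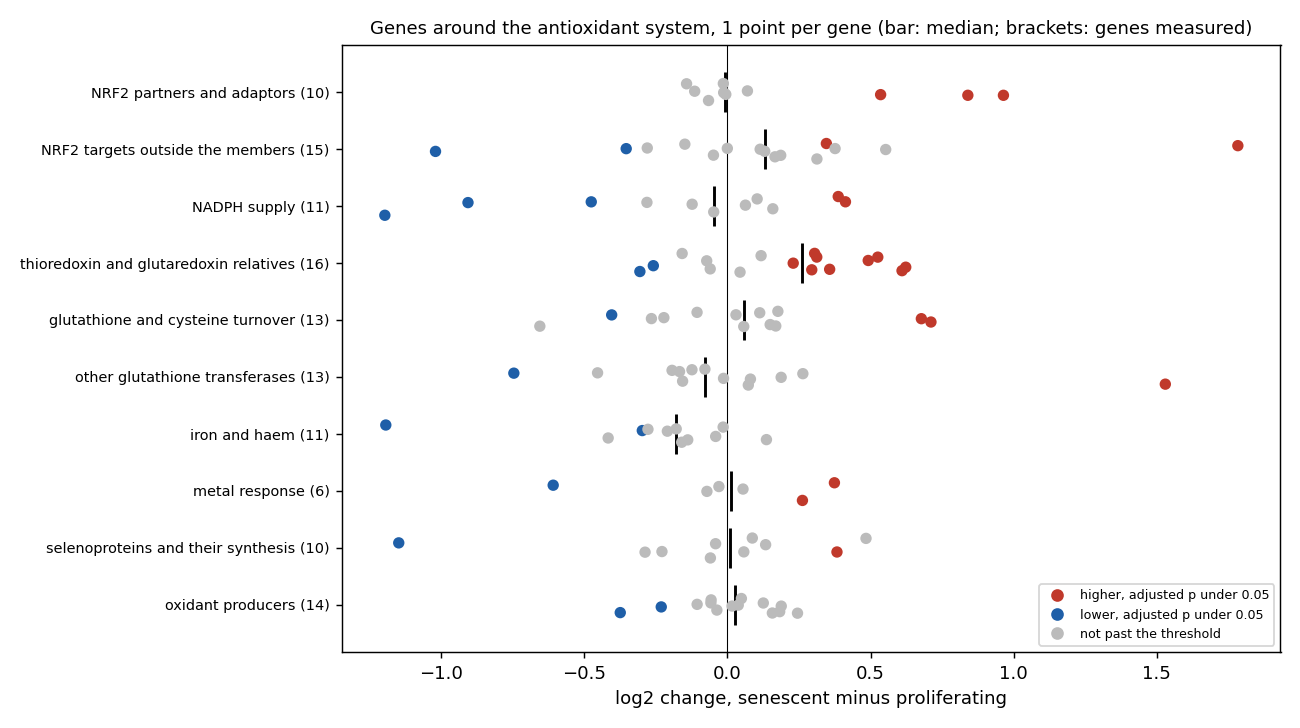
Log2 change (senescent minus proliferating, x axis) of 119 genes around the antioxidant system, 1 point per gene, in 10 lists; black bars are list medians and brackets give the genes measured. The rightmost point is Nqo1 at 1.78. The list of thioredoxin and glutaredoxin relatives, which also holds methionine repair enzymes, has the highest median, 0.26. The list of iron and haem genes has the lowest, -0.18. Scaling to the spike-ins moves the median of all genes to -0.60.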

How the data were processed

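RNA of 3 proliferating and 3 senescent samples was labelled with biotin and measured on Affymetrix arrays, per the labels' protocols. What was deposited is a log2 value for each probe set, computed by the authors with RMA (background correction, quantile normalization, probe summary), per the submitters' processing notes. Its version and any filter are not stated there. Quantile normalization removes shifts shared by most genes. Of 45101 probe sets, 34958 have 1 gene symbol and 932 several, and the latter were named nowhere. Symbols were updated by Entrez number with RefSeq (GRCm38.p6), which held 34754 of them. Groups came from the samples' titles. Senescent minus proliferating was estimated by limma 3.58.1 (lmFit, eBayes, R 4.3.3) without covariates, with Benjamini-Hochberg adjustment over 18193 genes and a threshold of 0.05; the median standard error was 0.0884. Probe sets were fitted likewise. Tested on simulated data of 18193 genes, the fit recovered 73.1% of 67 genes changed by 0.5 and 98.5% of 67 changed by 1. It made 13 false calls among 194. Only these genes and 66 changed by 2 were altered, a far smaller share than the 20.0% called in the real data. Recovery in the real data may therefore differ. Background is the 95th percentile over 44 probe sets of olfactory receptors, and a fold is a bound where a group lies below it on all arrays. Per-array values are given for called members with a change of at least 0.5, called members of the NRF2, thioredoxin and glutathione synthesis groups, and Nfe2l2, Keap1, Gpx4, Sod1, Sod2 and Cat. Of each related list up to 3 called genes with the largest change are named. Other features given by array (second probe sets, Hmox1, Txn1, Gpx1, Gpx3, Sod3, Nqo1), and Nox4 and Ugdh, were chosen after their values were seen. Members and lists were chosen with earlier results of these data known. Promoter sequences are RefSeq's (GRCm38.p6). Plots were made in matplotlib 3.10.9 (Python 3.11.15).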

Additional observations from a re-analysis of the deposited data

How the results depend on the processing

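Alternatives covered the probe sets per gene, filters on low values, the variance model, 2 scalings, a replicate block and leaving out each array. The counts of 6 members higher and 10 lower stayed within 1.5 times in all of them except with scaling to the poly-A spike-ins (0 and 30, with 15320 of all genes called in place of 3645). With 1 array left out, 6 to 8 members were called higher, 9 lower, and 2434 to 3337 of all genes. The median change of the members, -0.085, was -0.015 with the mean of all probe sets, -0.048 without probe sets of the suffix _s_at or _x_at, -0.066 above the median level, -0.016 with arrays centred on genes of middle level, -0.68 with spike-in scaling and -0.10 to -0.043 with 1 array left out. Signs turned with the mean of all probe sets for Nfe2l2 (0.79), Sod1 (0.14) and Mt1 (0.14), and without the suffixed probe sets for Mt1 (1.01). With the centring they turned for Txn1 (0.021), Txnip (0.057) and Gstp1 (0.054). With 1 array left out, changes ranged through 0 for Txnip (-0.059 to 0.064), Gstm5 (-0.027 to 0.10) and Gstp1 (-0.041 to 0.0076). Spike-in scaling turned Hmox1 (-0.45), Txnrd1 (-0.18), Gpx1 (-0.41), Gpx4 (-0.50), Gpx8 (-0.47), Prdx2 (-0.45), Prdx3 (-0.48), Sod3 (-0.26), Cat (-0.19), Gstm5 (-0.58), Mgst3 (-0.50) and Ephx1 (-0.14) among members, and Nfe2l1 (-0.061), Ugdh (-0.25), Pgls (-0.21), Taldo1 (-0.18), Txn2 (-0.30), Txnrd3 (-0.10), Glrx2 (-0.29), Glrx3 (-0.071), Glrx5 (-0.28), Txndc17 (-0.24), Msrb3 (-0.37), Mtf1 (-0.22), Slc39a14 (-0.33) and Selenom (-0.21) among related genes. Prdx2 passed with a robust variance trend (0.15, limma, adjusted p = 0.0325). Same-numbered arrays did not deviate together (correlations of 0.094, -0.068 and -0.15, and 1 of 6 arrays correlated best with its own number), so the replicate block is no pairing. With that block 6 members were higher and 9 lower, and 2935 of all genes were called. Dim probe sets and 3 arrays per group limit what could pass.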
